A study of Rattus norvegicus with 21 samples.

Results

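Retinas of Sprague Dawley rats kept for 6 months under halogen light at level 1000 (group Hal1000, 3 libraries) were compared with retinas of rats kept for the same time under halogen light at level 200 (group Hal200, 3 libraries), over every gene of the deposited count table. These 6 libraries were taken by their treatment label out of 21 libraries in 7 groups. The other groups were Blue1000, Blue200, LED1000 and LED200, and a control group, with 3 libraries each. The labels give no unit for the levels, do not describe the light of the control group, and carry an entry of 8 months, filed as a cell type, for all groups. By its title, the series asks how lamps of the kind used in dentistry affect the barrier between blood and retina. Whether the 3 samples of a group were different animals is not labelled, and the p-values rest on the differences among those samples, technical ones included.

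Rods are the photoreceptors of dim light. Light bleaches the visual pigment of their outer segments, the activated pigment switches on the G protein transducin, transducin activates a phosphodiesterase that breaks down cyclic GMP, and cation channels then close. The pigment epithelium behind the photoreceptors turns the spent chromophore back into its light-sensitive form, and rods of albino rats such as this strain are known to degenerate under prolonged bright light. Müller glia, which span the retina, react to photoreceptor damage with changes in growth factor, intermediate filament and homeostatic genes. In whole retina, a lower transcript level can come from fewer cells of a type or from less RNA per cell, and these cannot be told apart here.

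Transcripts of rods were far lower in Hal1000 than in Hal200, and genes of the pigment epithelium were mostly higher, by unequal amounts in the 3 Hal1000 libraries. Most bipolar, amacrine and ganglion cell genes and 10 of 23 Müller glia genes were moderately higher under the TMM scaling used here, and fewer of them under scaling to bipolar cell genes. Of 16006 genes tested, 5589 (34.9%) were called at an adjusted p under 0.05, 2641 (16.5%) higher and 2948 (18.4%) lower in Hal1000. The split was uneven among larger changes. Of 1121 called genes that differed more than 2-fold (7%), 267 (1.67%) were higher and 854 (5.34%) lower, and of those that differed more than 8-fold, 66 were higher and 215 lower. The 3 libraries of a group did not overlap those of the other for 8390 genes (52.4%). Counts of called or non-overlapping genes given below are to be read against these shares.

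Levels are given as CPM, counts scaled to the same library total after TMM normalization, which assumes that most genes are level between libraries. Fold changes are log2 values ± their standard error, Hal1000 over Hal200, with adjusted p-values from edgeR's quasi-likelihood test. The scaling matters for moderate changes. The median log2 fold change of all genes was 0.02 under TMM and -0.32 when libraries were scaled to the summed counts of bipolar cell genes, and the calls then split into 355 higher (2.22%) and 6088 lower genes (38%) instead of 2641 and 2948. With 1 library left out, 13.1% of genes were called higher and 15.4% lower without Hal1000 replicate 1, 13% and 15.3% without Hal1000 replicate 2, 13.1% and 14.9% without Hal1000 replicate 3, 15.9% and 18.2% without Hal200 replicate 1, 13.7% and 16.2% without Hal200 replicate 2, and 11.8% and 13% without Hal200 replicate 3. The Hal1000 libraries held 32027630 to 34008272 counts and the Hal200 libraries 33043727 to 35437448. Hal1000 replicate 3 lay between replicates 1 and 2 for 318 of the 330 genes (96.4%) at 5 CPM or more on average that differed more than 1.5-fold between those 2 libraries, and Hal200 replicate 2 lay between replicates 1 and 3 for 829 of 1027 such genes (80.7%). The same was seen in Blue1000 replicate 3 (94.3%), LED1000 replicate 2 (95.3%) and Blue200 replicate 2 (82.1%). The labels do not say whether samples were mixed or pooled. The SD, n = 3 and p-values treat the 3 libraries of a group as independent, which was not tested.

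The genes of the rod phototransduction cascade were all lower in Hal1000. Of 22 listed genes 21 were tested, and 21 were called lower, against 18.4% of all genes, with a median log2 fold change of -5.99. Together they took 0.117%, 0.119% and 0.0967% of all counts in the Hal1000 libraries, against 3.56%, 4.98% and 5.97% in the Hal200 libraries. Their share was thus 0.111 ± 0.0122% in Hal1000, against 4.84 ± 1.21% in Hal200 (SD, n = 3), a difference of -4.73 percentage points. In control it was 7.39 ± 0.297%, so that Hal200 stood at 65.4% of the control mean and Hal1000 at 1.5%. All 21 members had Hal200 means below control, and in all 21 Hal200 replicate 1 was lowest and replicate 3 highest. Within Hal1000, replicate 3 was the lowest library for 16 of the 21.

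Rod transducin alpha (Gnat1) had 31.5, 30.4 and 3.89 CPM in the Hal1000 libraries, against 4236, 6669 and 8721 CPM in the Hal200 libraries. The nearest libraries of the groups were 134-fold apart, and the Hal1000 libraries differed 8.09-fold among themselves, with replicate 3 lowest. The fitted log2 fold change was -8.22 ± 1.22 (adjusted p = 0.00011), and the control mean was 11921 CPM. Pde6b, the beta subunit of the rod phosphodiesterase, had 4.96, 5.5 and 0.966 CPM in the Hal1000 libraries, against 926, 1244 and 1697 CPM in the Hal200 libraries, and its log2 fold change was -8.41 ± 1.01 (adjusted p = 1.5e-05). The rod channel subunits followed the same pattern. Cnga1 had 1.93, 2.24 and 0.625 CPM in Hal1000 and 336, 498 and 624 CPM in Hal200, a log2 fold change of -8.25 ± 0.85. Cngb1 had 3.18, 1.39 and 0.426 CPM in Hal1000 and 389, 586 and 752 CPM in Hal200, a log2 fold change of -8.43 ± 1.14, or -9.32 without Hal1000 replicate 1.

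The fall was smaller in other members of the list. Arrestin (Sag), which ends the activity of the light-activated pigment, had 61.2, 61.9 and 46.2 CPM in the Hal1000 libraries, against 3482, 4606 and 5309 CPM in the Hal200 libraries. Its 3 Hal1000 libraries lay closer together than those of Gnat1, and its log2 fold change was -6.31 ± 0.52 (adjusted p = 2.6e-07). Recoverin (Rcvrn), a calcium sensor of rods, cones and some bipolar cells, had 47.3, 42.4 and 42.1 CPM in the Hal1000 libraries, against 630.1, 852 and 1108 CPM in the Hal200 libraries, a log2 fold change of -4.30 ± 0.26 (adjusted p = 2.3e-09). Pde6g, the inhibitory subunit of the phosphodiesterase, had 94.6, 95.5 and 83.3 CPM in Hal1000 and 1847, 2430.2 and 2794 CPM in Hal200, and its log2 fold change was -4.69 ± 0.32. Aipl1, the chaperone of the phosphodiesterase, was lower by less, at 69, 91 and 73.5 CPM in Hal1000 and 725, 1022 and 1111 CPM in Hal200, a log2 fold change of -3.61 ± 0.23. Gnb1, the transducin beta subunit that many other cells also use, had 473, 505 and 469.9 CPM in the Hal1000 libraries, against 2697, 3577 and 4562 CPM in the Hal200 libraries. Its libraries did not overlap between the groups, which held for 52.4% of all genes, and the log2 fold change was -2.90 ± 0.14 (adjusted p = 6.2e-11). The cyclase gene Gucy2e had at most 0.0568 CPM in the 6 libraries and was not tested. It was chosen after its values were seen.

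**Figure D1:**
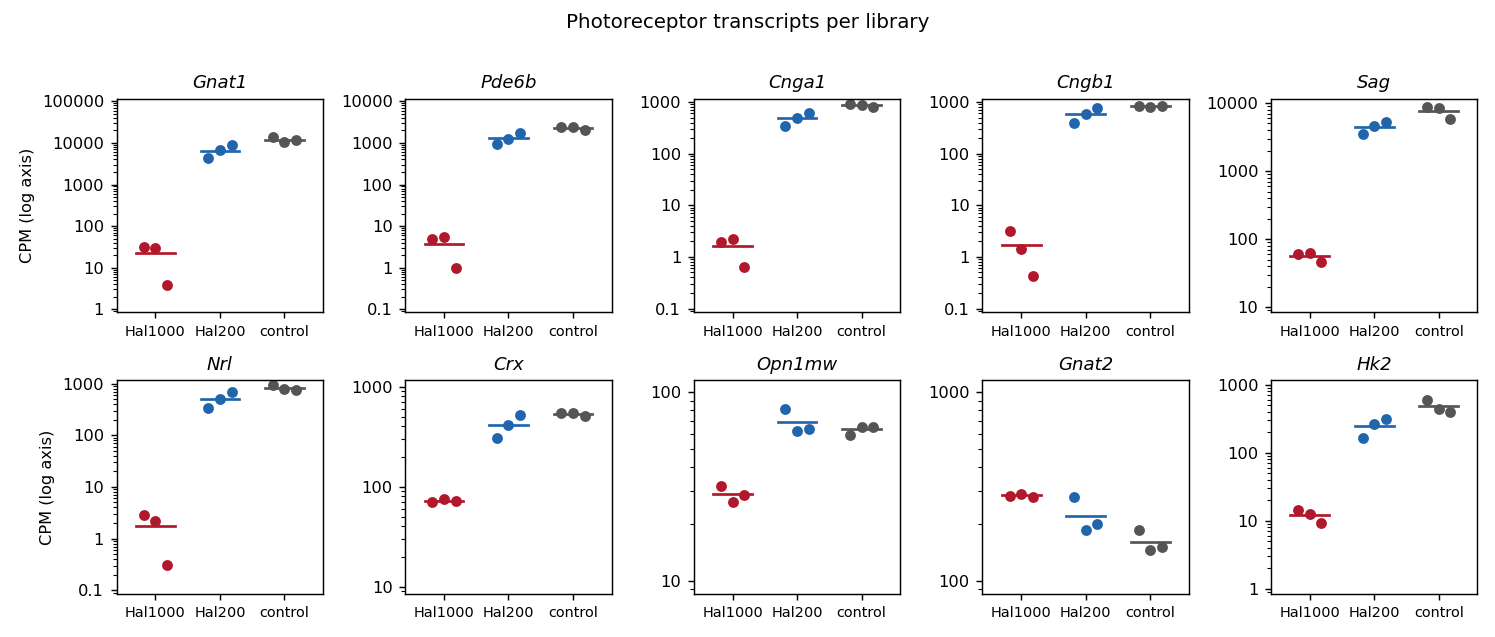
CPM (log axes) of 10 photoreceptor genes in the 3 Hal1000, 3 Hal200 and 3 control libraries, with a bar at each group's mean. In Gnat1, Pde6b, Cnga1, Cngb1 and Nrl the Hal1000 libraries lie far below the Hal200 libraries with replicate 3 lowest, while Gnat2, a cone gene, differs little between the groups.

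**Figure D2:**
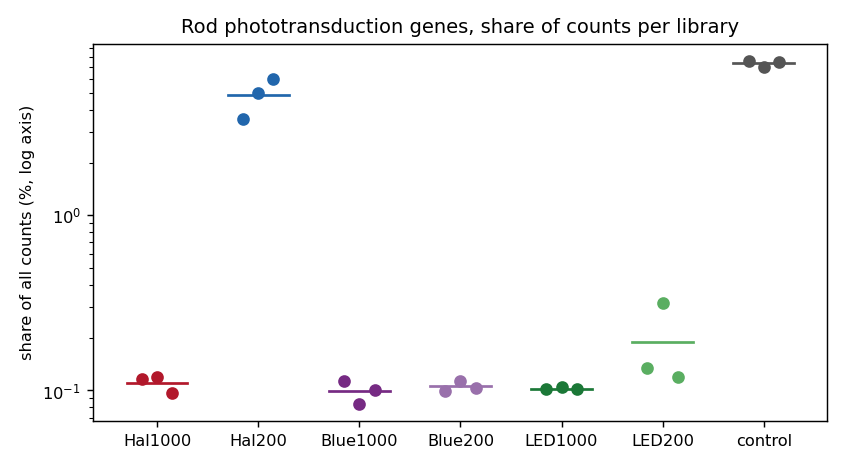
Summed counts of the rod phototransduction list as a percentage of all counts (log axis) in each of the 21 libraries, by group, with a bar at the group mean. The Hal1000 libraries lie between 0.0967% and 0.119%, near the blue and LED groups, and the Hal200 libraries between 3.56% and 5.97%, below the control libraries.

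Genes that build the outer segment and its connecting cilium were also lower as a group. All 21 tested members were called lower, with a median log2 fold change of -4.78 and a range of -7.54 to -0.57. Peripherin 2 (Prph2), which shapes the disc rim, had 49.4, 48.8 and 37.9 CPM in the Hal1000 libraries, against 1907, 2567 and 3275 CPM in the Hal200 libraries. The groups did not overlap and the log2 fold change was -5.83 ± 0.44 (adjusted p = 7.1e-08). Its partner Rom1 had 104, 102 and 99.97 CPM in the Hal1000 libraries, against 901, 1148 and 1378 CPM in the Hal200 libraries, a smaller difference of -3.49 ± 0.15 (adjusted p = 4.3e-11). The microtubule-associated protein Rp1 fell by more, to 13.4, 9.79 and 6.99 CPM in Hal1000, against 757, 1054 and 1356 CPM in Hal200, a log2 fold change of -6.71 ± 0.69. Its relative Rp1l1 had 16.9, 16.4 and 16.4 CPM in Hal1000 and 338, 432 and 622 CPM in Hal200, a log2 fold change of -4.81 ± 0.26. The retinoid flippase Abca4 had 97.5, 134 and 108 CPM in Hal1000 and 809.5, 1033 and 1460.3 CPM in Hal200, a log2 fold change of -3.28 ± 0.22. Prominin (Prom1), found at nascent discs, had 40.6, 43.3 and 39 CPM in Hal1000 and 265, 320.1 and 373 CPM in Hal200, a log2 fold change of -2.96 ± 0.18. All the members named here separated the groups without overlap, as did 52.4% of all genes. Prcd, a small disc protein, had 14.2, 15.1 and 15.7 CPM in Hal1000 and 113, 137 and 172 CPM in Hal200, a log2 fold change of -3.23 ± 0.18.

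The transcription factors of photoreceptors fell by unequal amounts. Of 14 tested factors 13 were called lower, with a median log2 fold change of -3.59. Nrl, the leucine zipper factor that sets rod fate, had 2.8, 2.18 and 0.313 CPM in the Hal1000 libraries, against 343, 504 and 683 CPM in the Hal200 libraries, a log2 fold change of -8.18 ± 1.04 (adjusted p = 2.6e-05). Its target Nr2e3, which represses cone genes in rods, had 1.72, 1.54 and 0.0568 CPM in the Hal1000 libraries, against 322, 466 and 645 CPM in the Hal200 libraries. In both genes Hal1000 replicate 3 was lowest by several-fold, and the log2 fold change of Nr2e3 was -8.76 ± 1.16 (adjusted p = 3.7e-05). Samd7, a rod repressor of the polycomb pathway, had 1.43, 1.63 and 1.59 CPM in Hal1000 and 71.8, 101 and 118 CPM in Hal200, a log2 fold change of -5.96 ± 0.38. Prdm1, which favours photoreceptor over bipolar fate, had 3.74, 2.45 and 2.44 CPM in Hal1000 and 41.5, 54.2 and 73.7 CPM in Hal200, a log2 fold change of -4.29 ± 0.27. Crx, which acts in rods, cones and, at a lower level, bipolar cells, had 69.9, 75.7 and 72.2 CPM in the Hal1000 libraries, against 305, 416 and 515 CPM in the Hal200 libraries. It kept far more of its transcript than Nrl, with a log2 fold change of -2.51 ± 0.16 (adjusted p = 1.2e-09). Neurod1 had 56, 59.6 and 55.4 CPM in Hal1000 and 167, 192 and 216 CPM in Hal200, a log2 fold change of -1.75 ± 0.12. Otx2, which bipolar cells and the pigment epithelium also express, had 212, 245 and 238 CPM in Hal1000 and 395, 467 and 621 CPM in Hal200, a log2 fold change of -1.09 ± 0.13. Pax7, a homeobox gene on the same list, had 0 counts in all 3 Hal1000 libraries and 3.26, 16.4 and 6.82 CPM in Hal200. Against a floor of 3 counts per library it was at least 101-fold lower, or at least 57.4-fold without Hal200 replicate 2.

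Crx binds DNA with the core TAATCC, and promoters are shown because many of the genes that fell most are known targets of this factor. The 250 bases before each gene's start were searched for TAATCC on both strands (GGATTA on the printed strand where it lies on the other). RefSeq promoters of the rat build GRCr8 were used, and the genome build behind the counts is not given in the sources used here. Of 27457 promoters, 1737 (6.33%) held the motif. Of the rod phototransduction list 17 of 22 members had a promoter and 6 held the motif, against 2 of 19 for the bipolar list. Photoreceptor lists were not alike in this, with 5 of 18 ribbon synapse, 4 of 17 outer segment and 1 of 11 transcription factor promoters, and lists that did not fall also held it, in 4 of 19 lens, 2 of 10 melanosome and 3 of 21 pigment epithelium promoters. Promoters of 4 genes of the rod list, that of Crx itself and that of the pigment epithelial gene Rpe65, all chosen because they hold the motif, are printed 5′ to 3′ on the gene's strand with the motif in capitals. The Cngb1 window lies at chr19:9732396-9732645 on the plus strand, with motifs starting at -62 and -29 from the gene's start. Gucy2f, a guanylate cyclase that restores cyclic GMP, has its window at chrX:110605018-110605267 on the minus strand, with motifs at -65 and -40. Aipl1's window lies at chr10:57163456-57163705 on the minus strand, with a motif at -70. Guca1a, which activates that cyclase at low calcium, has its window at chr9:21086392-21086641 on the plus strand, with a motif at -106. Crx's window lies at chr1:85681853-85682102 on the minus strand, with motifs at -170 and -97. Rpe65's window lies at chr2:251425118-251425367 on the plus strand, with a motif at -47.
Cngb1: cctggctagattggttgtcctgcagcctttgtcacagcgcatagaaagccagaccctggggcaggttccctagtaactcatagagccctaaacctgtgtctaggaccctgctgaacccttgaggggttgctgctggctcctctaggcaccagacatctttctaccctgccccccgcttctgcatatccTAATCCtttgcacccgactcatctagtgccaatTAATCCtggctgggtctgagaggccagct
Gucy2f: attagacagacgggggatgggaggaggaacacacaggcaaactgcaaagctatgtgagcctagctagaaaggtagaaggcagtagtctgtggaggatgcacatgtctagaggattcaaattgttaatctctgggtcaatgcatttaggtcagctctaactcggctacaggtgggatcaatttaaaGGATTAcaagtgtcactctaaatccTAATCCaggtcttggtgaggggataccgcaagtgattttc
Aipl1: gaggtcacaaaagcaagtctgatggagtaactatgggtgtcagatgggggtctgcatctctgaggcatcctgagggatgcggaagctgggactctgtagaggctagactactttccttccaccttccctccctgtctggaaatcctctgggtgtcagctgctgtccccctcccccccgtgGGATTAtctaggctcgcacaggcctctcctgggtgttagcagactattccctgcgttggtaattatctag
Guca1a: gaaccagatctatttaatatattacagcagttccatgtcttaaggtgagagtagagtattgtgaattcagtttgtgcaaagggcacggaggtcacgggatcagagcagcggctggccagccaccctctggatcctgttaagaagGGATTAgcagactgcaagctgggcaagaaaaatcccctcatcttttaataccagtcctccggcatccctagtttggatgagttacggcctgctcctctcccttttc
Crx: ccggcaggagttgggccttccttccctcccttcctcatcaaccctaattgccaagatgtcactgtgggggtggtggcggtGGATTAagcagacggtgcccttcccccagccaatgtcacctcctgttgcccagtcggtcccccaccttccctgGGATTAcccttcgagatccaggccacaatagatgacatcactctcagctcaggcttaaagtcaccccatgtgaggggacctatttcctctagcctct
Rpe65: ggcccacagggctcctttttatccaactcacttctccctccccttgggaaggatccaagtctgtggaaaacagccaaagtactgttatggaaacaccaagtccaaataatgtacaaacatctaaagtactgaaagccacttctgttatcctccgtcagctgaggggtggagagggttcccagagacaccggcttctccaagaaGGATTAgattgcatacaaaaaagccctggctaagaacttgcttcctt

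These motif-holding genes did not move alike. Gucy2f and Guca1a were chosen after their values were seen. Gucy2f had 1.02, 0.484 and 0.199 CPM in Hal1000 and 39, 55 and 93.2 CPM in Hal200, a log2 fold change of -6.77 ± 0.78, or -7.51 without Hal1000 replicate 1. Guca1a had 19.2, 15.1 and 14.5 CPM in Hal1000 and 495, 631 and 779 CPM in Hal200, a log2 fold change of -5.29 ± 0.36. Both genes are on the rod list and fell. Rpe65, with the same core, rose, as given with the pigment epithelium. A match to these letters is a description of the window and not a measured binding site.

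Cone genes were lower by much less than rod genes, and not in every member. Of 15 tested cone genes 8 were called lower and 0 higher, with a median log2 fold change of -0.59. The middle-wavelength opsin Opn1mw had 31.9, 25.9 and 28.3 CPM in the Hal1000 libraries, against 81.4, 62 and 63.4 CPM in the Hal200 libraries, with no overlap and a log2 fold change of -1.26 ± 0.32 (adjusted p = 0.0056). The short-wavelength opsin Opn1sw, at 35.8, 16.7 and 22.5 CPM in the Hal1000 libraries, against 34.9, 33.7 and 22 CPM in the Hal200 libraries, overlapped between the groups and did not pass the test (-0.27 ± 0.39, adjusted p = 0.63). Cone transducin (Gnat2) had 281, 288 and 279 CPM in the Hal1000 libraries, against 278, 185 and 199 CPM in the Hal200 libraries. It did not pass the test (0.36 ± 0.15, adjusted p = 0.063), but did without Hal200 replicate 1 (0.55, adjusted p = 0.0044), when 1 member was called higher and 7 lower, and under DESeq2 (adjusted p = 0.045). The cone phosphodiesterase Pde6c, at 38.4, 31.6 and 35.1 CPM in Hal1000 and 38.8, 34.1 and 42.3 CPM in Hal200, also missed the threshold (adjusted p = 0.71). Kcnv2, a channel gene of the inner segment that rods and cones both use, had 16.5, 13.1 and 15.1 CPM in Hal1000 and 169, 232 and 279 CPM in Hal200, a log2 fold change of -3.92 ± 0.28. The thyroid hormone receptor Thrb had 45, 48.6 and 50.4 CPM in Hal1000 and 82.3, 114 and 114 CPM in Hal200, a log2 fold change of -1.11 ± 0.17 (adjusted p = 7.7e-05). Gnb3, shared by cones and ON bipolar cells, had 435, 448 and 446 CPM in Hal1000 and 617, 686 and 692 CPM in Hal200, a log2 fold change of -0.59 ± 0.09.

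Genes of the photoreceptor ribbon synapse, where rods and cones pass signals to bipolar and horizontal cells, were mostly lower. Of 21 tested members 14 were called lower and 3 higher, with a median log2 fold change of -0.76, or 14 and 0 with bipolar scaling. Cabp4, the calcium sensor of the photoreceptor terminal, had 6.95, 6.62 and 4.83 CPM in the Hal1000 libraries, against 231, 291 and 449 CPM in the Hal200 libraries. This was the largest fall on the list, -5.72 ± 0.49 (adjusted p = 3.5e-07). The complexin Cplx4 had 29.6, 28.8 and 26.3 CPM in the Hal1000 libraries, against 219, 326 and 561 CPM in the Hal200 libraries, a log2 fold change of -3.71 ± 0.35 (adjusted p = 7.7e-07). Pikachurin (Egflam), which aligns the photoreceptor terminal with bipolar dendrites, had 35, 29.8 and 30.9 CPM in Hal1000 and 212, 272 and 299.9 CPM in Hal200, a log2 fold change of -3.03 ± 0.18. Elfn1, which recruits bipolar cells to the rod terminal, had 35.6, 38.6 and 35.5 CPM in Hal1000 and 165, 219 and 212 CPM in Hal200, a log2 fold change of -2.44 ± 0.15. The presynaptic calcium channel genes fell less. Cacna1f had 332, 268 and 287 CPM in Hal1000 and 649, 694 and 1118 CPM in Hal200, a log2 fold change of -1.47 ± 0.20, and its accessory subunit Cacna2d4 had 260.03, 226 and 244 CPM in Hal1000 and 462, 450.2 and 594 CPM in Hal200, a log2 fold change of -1.04 ± 0.18. The glutamate transporter Slc17a7, which bipolar cells also express, had 803, 783 and 791 CPM in Hal1000 and 1575, 1894 and 2270.2 CPM in Hal200, a log2 fold change of -1.27 ± 0.09 (adjusted p = 3.3e-09). Lrit3, a gene of this synapse placed on the bipolar list, was the exception in that list. It had 13, 11.7 and 13.5 CPM in the Hal1000 libraries, against 49.5, 43.1 and 51.5 CPM in the Hal200 libraries. Which cells its transcript came from was not tested. Its groups did not overlap, and the log2 fold change was -1.92 ± 0.24 (adjusted p = 6.8e-06).

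In the list of photoreceptor energy and lipid metabolism calls went both ways. Of 28 tested members 9 (32.1%) were called lower and 7 (25%) higher, against 18.4% and 16.5% of all genes, with a median of 0.04. With bipolar scaling 2 were higher and 14 lower. Hk2, the hexokinase of photoreceptors, had 14.3, 12.7 and 9.24 CPM in the Hal1000 libraries, against 163, 265 and 310.2 CPM in the Hal200 libraries, a log2 fold change of -4.35 ± 0.34 (adjusted p = 7.7e-08). Rdh12, which reduces retinal in the inner segment, had 1.31, 1.48 and 0.995 CPM in Hal1000 and 24.1, 28.1 and 48.1 CPM in Hal200, a log2 fold change of -4.72 ± 0.33. Elovl4, which makes the very long chain fatty acids of outer segments, had 82.1, 80.3 and 78.4 CPM in the Hal1000 libraries, against 343, 440.1 and 505 CPM in the Hal200 libraries. Its libraries were nearly identical within Hal1000, and the log2 fold change was -2.42 ± 0.11 (adjusted p = 4.3e-11). Ldha, the lactate dehydrogenase subunit of aerobic glycolysis, had 525, 518 and 518 CPM in Hal1000 and 852, 1007 and 1165 CPM in Hal200, a smaller difference of -0.95 ± 0.11. Among the rises, 2 were chosen after their values were seen. The lactate transporter Slc16a8, known from pigment epithelium, had 23.6, 72.3 and 49.7 CPM in the Hal1000 libraries, against 0.808, 3.8 and 3.94 CPM in the Hal200 libraries, highest in Hal1000 replicate 2 and lowest in replicate 1 among the Hal1000 libraries, and was the largest rise of the list (4.09 ± 0.72, adjusted p = 0.00042). The fatty acid desaturase Fads2 had 153, 183 and 175 CPM in the Hal1000 libraries, against 84.6, 85.8 and 78.8 CPM in the Hal200 libraries, a log2 fold change of 1.03 ± 0.11 (adjusted p = 3.8e-07). The glucose transporter Slc2a1, at 228, 259 and 241 CPM in Hal1000 and 218, 254 and 211 CPM in Hal200, did not pass the test (adjusted p = 0.84).

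Inner retinal neurons were represented by more called rises than falls. Under TMM scaling 17 of 24 bipolar genes, 19 of 21 amacrine genes and 15 of 23 ganglion cell genes were called higher, and 1, 0 and 1 lower. Their medians were 0.43, 0.52 and 0.45, or 0.409, 0.491 and 0.428 above the median of all genes, and 0.415, 0.49 and 0.436 above it with bipolar scaling. That scaling shifts every gene by nearly the same amount, so the distances under it are no separate result. Scaled to the bipolar list, 1, 4 and 0 members were called higher in these 3 lists and 2, 0 and 1 lower. The summed bipolar genes are level under this scaling by construction, so the bipolar count under it is no test of that list. The summed bipolar genes took 0.611%, 0.587% and 0.599% of all counts in the Hal1000 libraries, against 0.489%, 0.42% and 0.389% in the Hal200 libraries. This order of the Hal200 libraries is the reverse of that of the rod share. The rod bipolar kinase Prkca, at 599.99, 586 and 591 CPM in Hal1000 and 604, 574 and 546 CPM in Hal200, did not pass the test (0.04 ± 0.13, adjusted p = 0.83) and turned to -0.29 (adjusted p = 0.0066) with bipolar scaling. Of 11 tested horizontal cell genes 3 were called higher, or 0 with bipolar scaling, and Lhx1, at 5.37, 4.32 and 4.69 CPM in Hal1000 and 5.22, 8.38 and 5.16 CPM in Hal200, was not called (-0.38 ± 0.23, adjusted p = 0.21), but was with bipolar scaling (-0.73, adjusted p = 0.024).

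A few inner retinal genes rose under both scalings. Slc18a2, the vesicular monoamine transporter, had 8.88, 12.3 and 10.9 CPM in the Hal1000 libraries, against 1.58, 1.5 and 1.39 CPM in the Hal200 libraries. The nearest libraries of the groups were 5.6-fold apart, and the log2 fold change was 2.84 ± 0.27 (adjusted p = 1.4e-07), or 2.51 with bipolar scaling. Tyrosine hydroxylase (Th), the dopamine-synthesizing enzyme of dopaminergic amacrine cells, had 27.3, 25.5 and 26.8 CPM in the Hal1000 libraries, against 10.5, 15.9 and 12.6 CPM in the Hal200 libraries, a log2 fold change of 1.03 ± 0.19 (adjusted p = 0.0004), or 0.68 (adjusted p = 0.016). Enkephalin (Penk) had 196, 189.6 and 199.5 CPM in Hal1000 and 115, 97.7 and 85.5 CPM in Hal200, a log2 fold change of 0.97 ± 0.12, or 0.64 with bipolar scaling. The melanopsin gene Opn4, which makes a class of ganglion cells light-sensitive, went the other way, with 14.4, 10.2 and 12.2 CPM in the Hal1000 libraries, against 26.8, 41.9 and 46.5 CPM in the Hal200 libraries. It was the fall called on the ganglion cell list, -1.64 ± 0.23 (adjusted p = 2.5e-05), with -2.01 under bipolar scaling. The ganglion cell surface gene Thy1 had 498, 506 and 495 CPM in Hal1000 and 374, 352 and 333 CPM in Hal200, a log2 fold change of 0.50 ± 0.06 under TMM, or 0.16 (adjusted p = 0.22) with bipolar scaling.

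Synaptic and peptide genes were also called higher more often than lower under TMM. Of 31 tested synaptic genes 20 were called higher and 2 lower, with a median of 0.35, and of 18 neuropeptide genes 12 were higher and 1 lower, with a median of 0.57. With bipolar scaling these counts were 4 and 4 for synaptic genes and 5 and 1 for peptides. Synapsin (Syn1) had 416, 395 and 403 CPM in Hal1000 and 274, 262 and 251 CPM in Hal200 and a log2 fold change of 0.62 ± 0.07, or 0.28 (adjusted p = 0.013). The vesicle protein Sv2b, abundant in photoreceptor terminals, fell instead, at 389.8, 371 and 386 CPM in Hal1000 and 580.00, 676 and 732 CPM in Hal200 (-0.79 ± 0.09, adjusted p = 2.7e-06). Vip had 27.7, 31.1 and 34.2 CPM in the Hal1000 libraries, against 9.2, 6.71 and 7.61 CPM in the Hal200 libraries, a log2 fold change of 1.98 ± 0.25 (adjusted p = 5.5e-06), and substance P (Tac1) had 13.5, 17.4 and 16.4 CPM in Hal1000 and 7.43, 6.2 and 7.41 CPM in Hal200, a log2 fold change of 1.17 ± 0.16. Galanin (Gal) was the peptide that fell, with 0.935, 0.907 and 0.796 CPM in the Hal1000 libraries, against 22.8, 22.8 and 4.47 CPM in the Hal200 libraries and a control mean of 1.06 CPM. The Hal200 libraries differed 5.12-fold, with replicate 3 lowest yet 4.78-fold above the highest Hal1000 library, and the log2 fold change was -4.24 ± 0.54 (adjusted p = 5.8e-06).

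**Figure D3:**
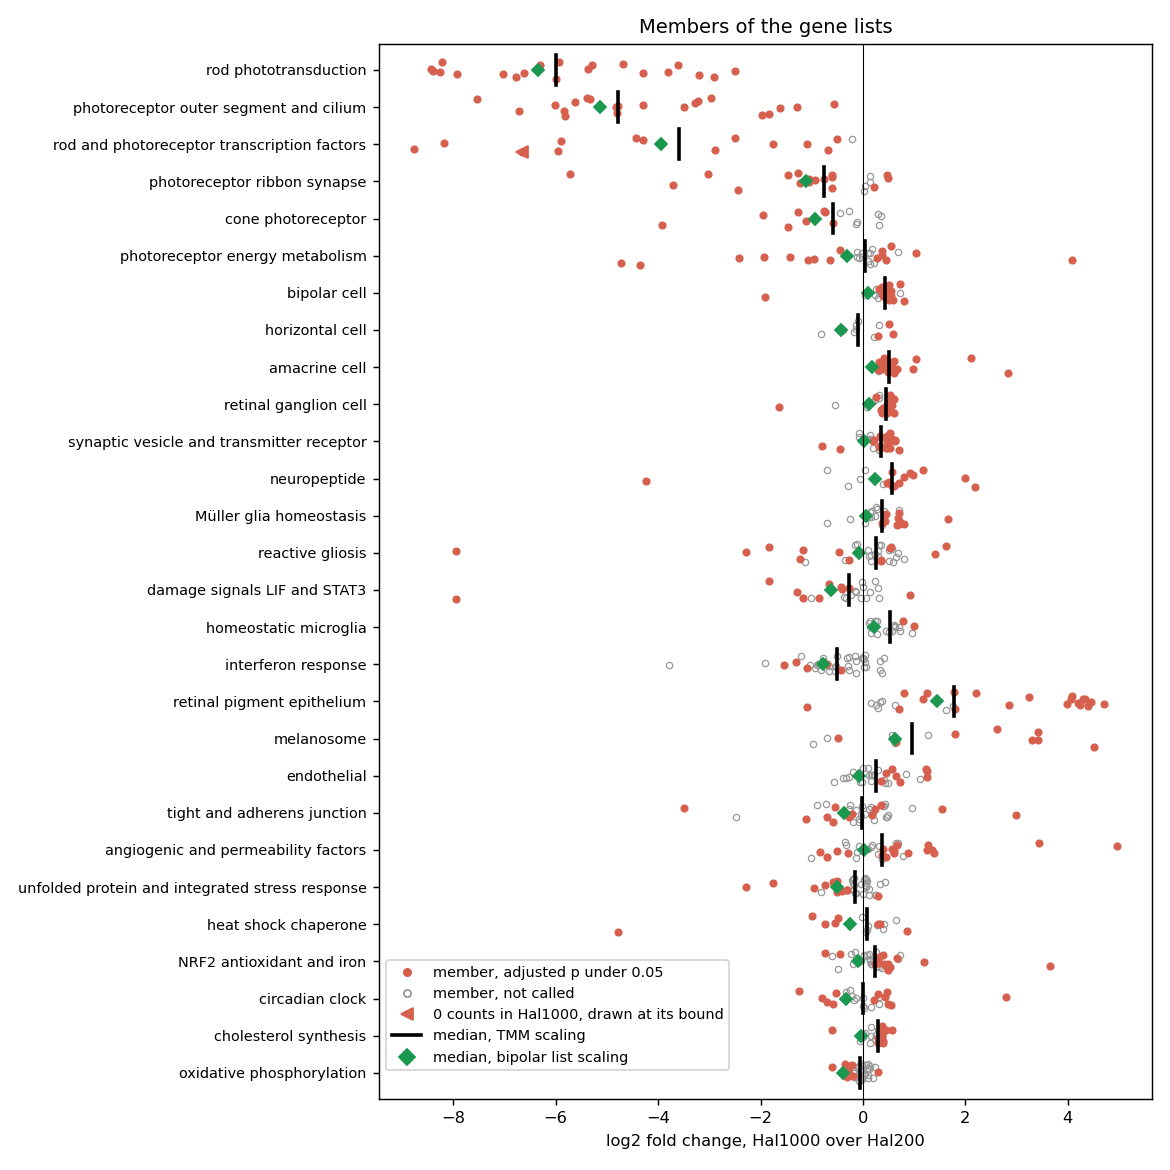
Log2 fold changes of Hal1000 over Hal200 for the members of 28 gene lists, 1 point per gene, with the list's median under TMM scaling (black bar) and under scaling to the bipolar list (green diamond). The lists of rod phototransduction, outer segment and photoreceptor transcription factors lie far to the left, the cone and ribbon synapse medians are -0.59 and -0.76, and the pigment epithelium and melanosome lists lie to the right. The bipolar, amacrine and ganglion cell medians lie above 0 under TMM and nearer to 0 under bipolar scaling, while those of the horizontal cell list and of the LIF and STAT3 list are -0.09 and -0.28 under TMM.

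Müller glia genes of potassium, water and retinoid handling were called higher or not called. Of 23 tested members 10 were called higher, 0 lower and 13 not called, with a median of 0.38 and a lowest log2 fold change of -0.71. With the compared groups fitted alone 11 were higher and 1 lower, and with bipolar scaling 5 were higher and 2 lower. Kcnj10, the potassium channel of Müller endfeet, had 334, 304 and 328 CPM in the Hal1000 libraries, against 196, 192 and 165 CPM in the Hal200 libraries. The log2 fold change was 0.81 ± 0.07 (adjusted p = 9.9e-08) and stayed called with bipolar scaling (0.47, adjusted p = 0.00027). Rlbp1, the retinaldehyde-binding protein of Müller cells and pigment epithelium, had 665, 804 and 724 CPM in Hal1000 and 477, 471 and 406 CPM in Hal200, a log2 fold change of 0.70 ± 0.09. Carbonic anhydrase 2 (Car2) had 999, 1011 and 1006 CPM in Hal1000 and 618, 618 and 585 CPM in Hal200, a log2 fold change of 0.73 ± 0.07. Dkk3, a secreted protein, had 4103, 3955 and 3986 CPM in Hal1000 and 2694, 2709 and 2202 CPM in Hal200, a log2 fold change of 0.66 ± 0.07. Glutamine synthetase (Glul), at 4296, 3611 and 3964 CPM in Hal1000 and 3666, 3437 and 3376 CPM in Hal200, did not pass the test (adjusted p = 0.18), nor did the water channel Aqp4, at 152, 148 and 157 CPM in Hal1000 and 155, 151 and 106 CPM in Hal200 (adjusted p = 0.32).

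Gliosis genes did not move together. Of 34 tested members 6 (17.6%) were called higher and 7 (20.6%) lower, near the 16.5% and 18.4% of all genes. The count depended on single libraries: it was 3 higher and 8 lower without Hal1000 replicate 1, 3 and 6 without Hal1000 replicate 3, and 2 and 8 without Hal200 replicate 3, which was the lowest Hal200 library for 31 of the 34. It was 1 higher and 9 lower with bipolar scaling. Gfap, the intermediate filament that marks reactive glia, had 608, 447 and 526 CPM in the Hal1000 libraries, against 596, 583 and 231 CPM in the Hal200 libraries, with a control mean of 117 CPM. The groups overlapped and the gene did not pass the test (0.17 ± 0.26, adjusted p = 0.67). Nestin (Nes), another intermediate filament, had 11.7, 9.34 and 11.9 CPM in the Hal1000 libraries, against 3.08, 4.4 and 3.21 CPM in the Hal200 libraries, a log2 fold change of 1.62 ± 0.26 (adjusted p = 7.2e-05). The nuclear regulator Bcl3 had 11.1, 9.04 and 11.6 CPM in Hal1000 and 23.9, 32 and 18.5 CPM in Hal200, with a control mean of 6.8 CPM, and fell in Hal1000 relative to Hal200 (-1.23 ± 0.27, adjusted p = 0.0015).

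Some genes of the retinal damage response fell, among them Edn2, Fgf2 and Atf3. Endothelin 2 (Edn2), which damaged photoreceptors are known to release, had 0, 0.121 and 0.0853 CPM in the Hal1000 libraries, against 13.4, 22 and 18.2 CPM in the Hal200 libraries, and a control mean of 11 CPM. The Hal1000 libraries held 0, 4 and 3 counts of it, against 430, 735 and 549 in Hal200. The log2 fold change was -7.95 ± 1.0 (adjusted p = 1.0e-05), or -8.57 without Hal1000 replicate 2. Fgf2, a survival factor for photoreceptors, had 7.68, 6.5 and 6.51 CPM in the Hal1000 libraries, against 22.2, 29.8 and 21.4 CPM in the Hal200 libraries, with a control mean of 16.4 CPM and a log2 fold change of -1.83 ± 0.25 (adjusted p = 1.5e-05). The stress factor Atf3 had 2.66, 2.75 and 2.93 CPM in Hal1000 and 11.8, 19.2 and 9.4 CPM in Hal200, a log2 fold change of -2.28 ± 0.38 (adjusted p = 0.00014). Over the list of LIF and STAT3 signalling 9 of 25 tested members (36%) were called lower and 1 (4%) higher, against 18.4% and 16.5% of all genes, with a median of -0.28. The number lower was 13 under voom quality weights or with bipolar scaling, and 6 without Hal1000 replicate 2 or 3 or Hal200 replicate 1 or 2. The receptor Lifr had 20.7, 17 and 17.1 CPM in Hal1000 and 38.1, 45 and 50.3 CPM in Hal200, a log2 fold change of -1.28 ± 0.34. The receptor Cntfr moved the opposite way, with 170.1, 152 and 155 CPM in the Hal1000 libraries, against 89.7, 85 and 78.1 CPM in the Hal200 libraries, a log2 fold change of 0.92 ± 0.09 (adjusted p = 2.1e-07). The ligand Lif, at 3.65, 2.54 and 3.15 CPM in Hal1000 and 5.69, 6.11 and 2.35 CPM in Hal200, did not pass the test (-0.60 ± 0.29, adjusted p = 0.12), but did without Hal200 replicate 3 (-0.91, adjusted p = 0.01) and with bipolar scaling (-0.93, adjusted p = 0.016). The ligand Cntf, at 12.8, 11.5 and 14.5 CPM in Hal1000 and 9.63, 13.8 and 9.49 CPM in Hal200, did not pass it either (adjusted p = 0.55). The growth factor Hbegf had 10.5, 10.1 and 10.3 CPM in Hal1000 and 18.1, 17.9 and 19.7 CPM in Hal200, a log2 fold change of -0.85 ± 0.14.

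Proneural genes split. Neurog2, a proneural transcription factor, had 6.95, 6.23 and 5.37 CPM in the Hal1000 libraries, against 0.249, 1.26 and 0.232 CPM in the Hal200 libraries, a log2 fold change of 3.39 ± 0.51 (adjusted p = 3.9e-05), or 4.66 without Hal200 replicate 2. Lin28a, known from the regenerating fish retina, fell, at 0.526, 0.695 and 0.313 CPM in Hal1000 and 9.26, 10.4 and 12.5 CPM in Hal200 (-4.39 ± 0.53, adjusted p = 4.0e-06), as did the Notch ligand Jag1, at 15.4, 14.3 and 14.6 CPM in Hal1000 and 38.7, 54.7 and 59.7 CPM in Hal200 (-1.79 ± 0.18). Of 22 tested members 5 (22.7%) were higher and 5 (22.7%) lower, against 16.5% and 18.4% of all genes. With bipolar scaling 2 were higher and 7 lower. Among cell cycle genes 2 of 24 (8.33%) were called higher and 3 (12.5%) lower, both below the shares of all genes. When any library but Hal200 replicate 1 was left out 0 or 1 were higher, and under voom quality weights 5 were higher and 5 lower. Ccnd2, a D-type cyclin, had 3.77, 5.74 and 4.89 CPM in the Hal1000 libraries, against 48, 65.3 and 70.4 CPM in the Hal200 libraries, a log2 fold change of -3.67 ± 0.28 (adjusted p = 1.9e-08), with a control mean of 36 CPM. The proliferation marker Mki67, at 0.964, 1.18 and 0.853 CPM in Hal1000 and 0.559, 0.569 and 0.0993 CPM in Hal200, did not pass the test (adjusted p = 0.20).

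**Figure D4:**
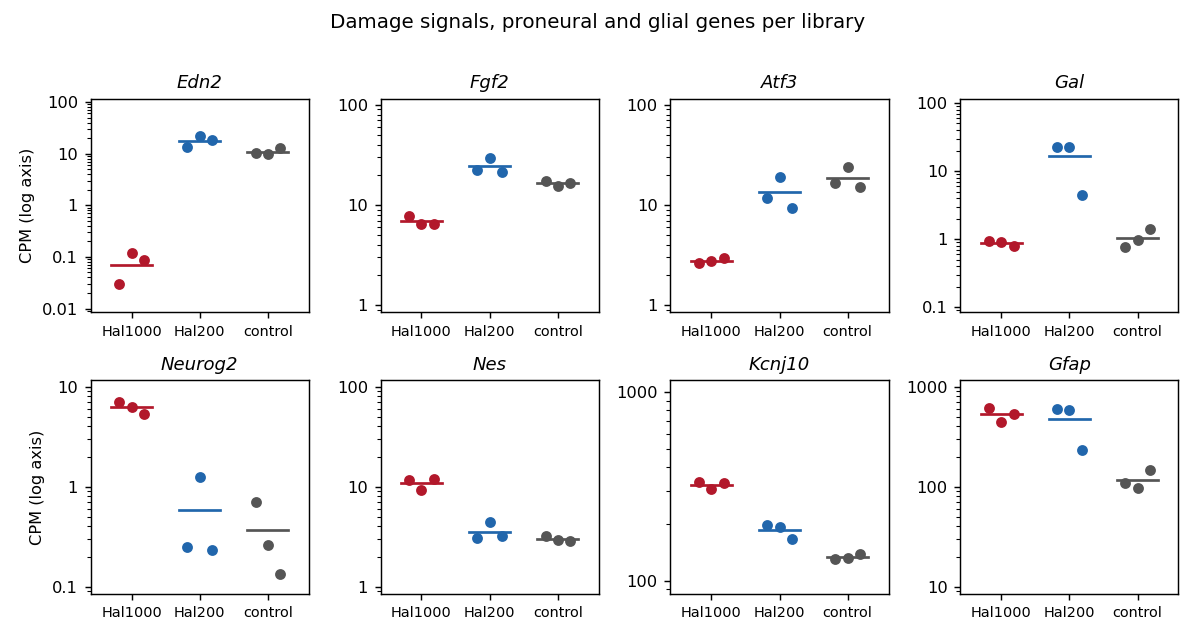
CPM (log axes) of 8 damage, peptide, proneural and glial genes in the Hal1000, Hal200 and control libraries, with a bar at each group's mean. A library at 0 is drawn at 0.03 CPM. Edn2, Fgf2, Atf3 and Gal lie lower and Neurog2, Nes and Kcnj10 higher in Hal1000 than in Hal200, and Gfap overlaps.

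Immune genes showed few calls by edgeR. Of 18 tested microglial genes 2 (11.1%) were called higher and 0 lower, and of 23 complement genes 1 (4.35%) higher and 0 lower, against 16.5% and 18.4% of all genes. Of 24 phagocyte genes 4 (16.7%) were higher, near the 16.5% of all genes, and 1 was lower. The fall was lost when any library but Hal200 replicate 1 was left out, and 7 genes were higher under voom quality weights. Without Hal200 replicate 1 the microglial count became 4 higher and the complement count 4, and without Hal200 replicate 2 the complement count was 3. All 18 microglial log2 fold changes were above 0 (lowest 0.12), and 5 microglial genes were called higher under DESeq2 or voom quality weights and 5 complement genes under voom quality weights. Hal200 replicate 3 was the lowest Hal200 library for 16 of the 18 microglial, 23 of the 24 phagocyte and 18 of the 23 complement genes. The medians of these lists were 0.54, 0.41 and 0.50, and 0.25, 0.13 and 0.22 without that library. The microglial receptor P2ry12, at 9.32, 7.77 and 7.93 CPM in Hal1000 and 6.43, 4.25 and 5.62 CPM in Hal200, did not pass the test (adjusted p = 0.081), but did under voom quality weights (adjusted p = 0.0059). Csf1r, at 82.7, 89.9 and 84.5 CPM in Hal1000 and 77.9, 64.6 and 32 CPM in Hal200, did not pass it either (adjusted p = 0.067), but did without Hal200 replicate 1 (adjusted p = 0.0096) and under DESeq2 (adjusted p = 0.028). The organic anion transporter Slco2b1 had 27.5, 32 and 30.3 CPM in Hal1000 and 18.4, 16 and 10.5 CPM in Hal200, a log2 fold change of 1.0 ± 0.20 (adjusted p = 0.00056). Of 39 tested interferon-related genes 5 were called lower and 0 higher, with a median of -0.51. The share called lower, 12.8%, was below the 18.4% of all genes. The number lower was 3 without any 1 of the 3 Hal1000 libraries, 8 under DESeq2, and 10 under voom quality weights or with bipolar scaling. Hal200 replicate 3 was the lowest Hal200 library for 33 of the 39, and without it 7 were lower, with a median of -0.68. The interferon-induced ligase Herc6 had 17.3, 16.7 and 17.4 CPM in the Hal1000 libraries, against 52, 48.3 and 49.4 CPM in the Hal200 libraries, a log2 fold change of -1.54 ± 0.16 (adjusted p = 3.0e-07). The transcription factor Irf1 had 13.9, 12.6 and 11.8 CPM in Hal1000 and 28.7, 26.1 and 27.1 CPM in Hal200, a log2 fold change of -1.10 ± 0.25. Of 18 class I presentation genes 5 (27.8%) were called lower, against 18.4% of all genes, or 3 without Hal1000 replicate 1 or 3 or Hal200 replicate 1 or 2. The number lower was 8 under voom quality weights. The peptide-loading protein Tapbp had 31.2, 31.5 and 28.8 CPM in Hal1000 and 95.1, 117 and 77 CPM in Hal200, a log2 fold change of -1.66 ± 0.17 (adjusted p = 6.9e-07). Ciita, the activator of class II genes, had 0.409, 0.635 and 0.0853 CPM in the Hal1000 libraries, against 6.53, 5.39 and 17.2 CPM in the Hal200 libraries. The log2 fold change was -4.68 ± 0.70 (adjusted p = 5.3e-05), or -5.28 without Hal1000 replicate 2 and -3.97 without Hal200 replicate 3. The invariant chain Cd74, at 85.1, 56 and 71 CPM in Hal1000 and 103, 65.1 and 15.9 CPM in Hal200, overlapped between the groups (adjusted p = 0.83). RT1 genes are near-identical copies that can share reads, and their single values are not given.

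Genes of the pigment epithelium rose strongly and unevenly. Of 28 tested members 19 were called higher and 1 lower, with a median log2 fold change of 1.79. Together they took 0.222%, 0.387% and 0.303% of all counts in the Hal1000 libraries, against 0.14%, 0.153% and 0.138% in the Hal200 libraries, with 0.142 ± 0.00482% in control. For 21 of the 28 genes Hal1000 replicate 2 was highest, replicate 3 next and replicate 1 lowest. Rpe65, the isomerase of the visual cycle, had 28.7, 108 and 63.9 CPM in the Hal1000 libraries, against 1.24, 5.33 and 5.43 CPM in the Hal200 libraries. The nearest libraries of the groups were 5.29-fold apart and the Hal1000 libraries differed 3.78-fold among themselves, and the log2 fold change was 4.07 ± 0.63 (adjusted p = 0.00014). Lrat, which esterifies retinol, had 14.2, 60.7 and 38.8 CPM in the Hal1000 libraries, against 0.435, 3.62 and 1.29 CPM in the Hal200 libraries, a log2 fold change of 4.40 ± 0.80 (adjusted p = 0.00059). Rdh5, the 11-cis-retinol dehydrogenase, had 22.6, 63.9 and 41.4 CPM in the Hal1000 libraries, against 0.653, 3.38 and 1.75 CPM in the Hal200 libraries, a log2 fold change of 4.46 ± 0.77 (adjusted p = 0.00036). The opsin Rgr had 109, 362 and 227 CPM in Hal1000 and 3.95, 25.5 and 14.8 CPM in Hal200, a log2 fold change of 3.98 ± 0.74. The carrier transthyretin (Ttr) had 198, 666 and 426 CPM in Hal1000 and 6.28, 40.5 and 23.5 CPM in Hal200, a log2 fold change of 4.20 ± 0.81. The retinol receptor Stra6 had 26.6, 85.3 and 59.96 CPM in Hal1000 and 3.36, 8.56 and 6.32 CPM in Hal200, a log2 fold change of 3.23 ± 0.47. All these genes showed the same order of the Hal1000 libraries. Without Hal200 replicate 2, the highest Hal200 library of most of them, the log2 fold changes were 5.46 for Lrat, 5.15 for Rdh5, 4.62 for Rgr and 4.84 for Ttr. The channel Best1, at 2.07, 1.84 and 2.22 CPM in Hal1000 and 1.99, 1.35 and 1.79 CPM in Hal200, did not pass the test (adjusted p = 0.57), nor did the phagocytosis receptor Mertk, at 35, 35.2 and 35.9 CPM in Hal1000 and 29.2, 31.4 and 23.9 CPM in Hal200 (adjusted p = 0.22). Otx2 was the fall called on this list and is also a photoreceptor gene.

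Melanosome genes went with the pigment epithelium. Of 14 tested members 7 were called higher and 1 lower, a count that was 3 higher without Hal1000 replicate 2 and 4 without Hal1000 replicate 3 or Hal200 replicate 3. Mlana, a melanosome protein, had 1.52, 7.29 and 4.86 CPM in the Hal1000 libraries, against 0, 0.479 and 0.0993 CPM in the Hal200 libraries, a log2 fold change of 4.51 ± 1.07 (adjusted p = 0.0035), or 6.44 without Hal200 replicate 2. The ion exchanger Slc24a5 had 2.89, 6.71 and 5.68 CPM in Hal1000 and 0.218, 0.599 and 0.596 CPM in Hal200, a log2 fold change of 3.43 ± 0.66 (adjusted p = 0.00056). Pmel, the fibril protein of melanosomes, had 17.4, 55.6 and 33.1 CPM in Hal1000 and 1.93, 4.67 and 3.34 CPM in Hal200, a log2 fold change of 3.41 ± 0.90 (adjusted p = 0.0082, or 0.10 under voom quality weights). Tyrosinase (Tyr), which albino rats carry in an inactive form, had 0.175, 0.0605 and 0.0568 CPM in Hal1000 and 0.186, 0.329 and 0.0662 CPM in Hal200 and was not called (adjusted p = 0.75).

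Markers of tissues next to the retina were measured in the same libraries. The lens list took 0.0201%, 0.00382% and 0.013% of all counts in the Hal1000 libraries, against 0.00222%, 0.00191% and 0.00152% in the Hal200 libraries, with 0.163 ± 0.272% in control, and 1 of 19 tested members was called higher, or 0 without Hal1000 replicate 1 or 3 or Hal200 replicate 2 or 3 and with bipolar scaling. With the compared groups fitted alone 7 of 12 lens genes were called higher, and 3 of 19 under DESeq2, and the median log2 fold change of the list was 2.13. The crystallin Cryaa had 134, 9.55 and 74 CPM in the Hal1000 libraries, against 2.11, 2.01 and 2.18 CPM in the Hal200 libraries, with a control mean of 1128 CPM. It was not called (adjusted p = 0.25), but was under DESeq2 (5.10, adjusted p = 0.043). Replicate 1 was highest for the lens share where replicate 2 was highest for the pigment share. The cornea, iris and ciliary body list took 0.00809%, 0.0197% and 0.0136% of all counts in the Hal1000 libraries, in the pigment order. In the Hal200 libraries it took 0.006%, 0.00352% and 0.00242%. Of 16 cornea, iris and ciliary body genes 4 (25%) were called higher, against 16.5% of all genes, or 2 with bipolar scaling. Myocilin (Myoc), made by the iris and ciliary body among other tissues, had 43.7, 149 and 94.4 CPM in the Hal1000 libraries, against 0.559, 8.35 and 5.62 CPM in the Hal200 libraries, a log2 fold change of 4.30 ± 0.91 (adjusted p = 0.002), or 4.95 without Hal200 replicate 2. The carboxypeptidase-like gene Cpxm2 had 6.66, 18.9 and 11.3 CPM in Hal1000 and 1.18, 2.01 and 1.32 CPM in Hal200, a log2 fold change of 3.02 ± 0.58 (adjusted p = 0.00059). The corneal keratin Krt12 had 0.0584, 0.514 and 0.0568 CPM in Hal1000 and 0.249, 0.359 and 0.43 CPM in Hal200 (adjusted p = 0.68). The part of these tissues in the pigment epithelial result was not tested.

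**Figure D5:**
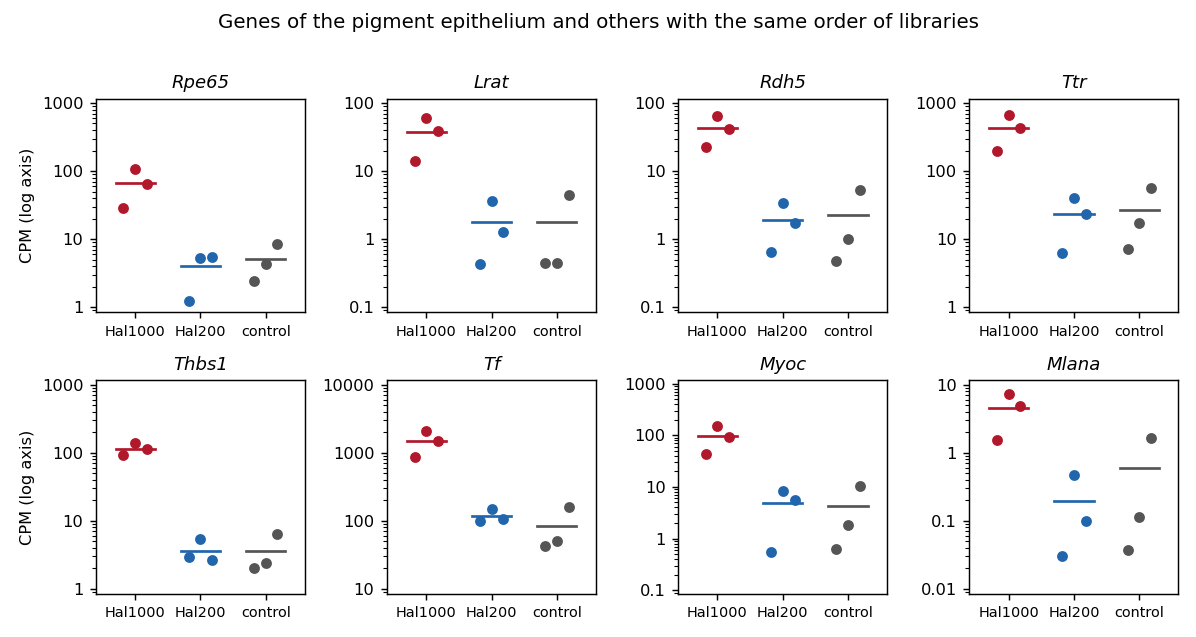
CPM (log axes) of 8 genes with high levels in Hal1000, in the Hal1000, Hal200 and control libraries, with a bar at each group's mean. A library at 0 is drawn at 0.03 CPM. The genes were chosen to show this order: all 3 Hal1000 libraries lie above all 3 Hal200 libraries, with replicate 2 highest and replicate 1 lowest. Their sharing it is therefore no separate result.

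Vascular and barrier genes showed no direction common to the lists and both scalings. Of 28 tested endothelial genes 8 (28.6%) were called higher and 0 lower, against 16.5% and 18.4% of all genes. The number higher was 5 without Hal1000 replicate 1, 4 without Hal200 replicate 2 and 5 without Hal200 replicate 3. With bipolar scaling 1 was higher and 5 lower. The junction protein of the inner barrier Cldn5, at 28.3, 20.4 and 25.5 CPM in Hal1000 and 38, 29.9 and 22.1 CPM in Hal200, did not pass the test (-0.28 ± 0.19, adjusted p = 0.29), but did with bipolar scaling (-0.60, adjusted p = 0.023). The endothelial cadherin Cdh5, at 10.3, 8.04 and 9.18 CPM in Hal1000 and 9.7, 5.99 and 5.03 CPM in Hal200, did not pass it either (adjusted p = 0.23), but did without Hal200 replicate 1 (adjusted p = 0.034). The endothelial adhesion gene Pecam1 had 18.2, 17.7 and 15.9 CPM in Hal1000 and 11.6, 11.6 and 8.04 CPM in Hal200, a log2 fold change of 0.73 ± 0.18 (adjusted p = 0.0033), or 0.39 (adjusted p = 0.11) with bipolar scaling. The vessel growth ligand Apln had 3.48, 4.05 and 4.29 CPM in Hal1000 and 1.21, 2.22 and 1.55 CPM in Hal200, a log2 fold change of 1.24 ± 0.30 (adjusted p = 0.0035). Of 14 pericyte genes 0 were called higher and 0 lower by edgeR, which gave 0 an unadjusted p under 0.05, and DESeq2 also called 0, while 2 were called higher with the compared groups fitted alone.

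Of 35 tested junction genes 5 (14.3%) were called higher and 7 (20%) lower, near the 16.5% and 18.4% of all genes. The counts were 3 and 6 without Hal1000 replicate 1, and 3 and 5 without Hal1000 replicate 3 or Hal200 replicate 3. With bipolar scaling they were 2 and 16. The falls included Crb1 and Crb2, polarity genes of the outer limiting membrane, which joins photoreceptors to Müller glia. Crb2 had 9.64, 6.32 and 6.48 CPM in the Hal1000 libraries, against 60.5, 81.8 and 112 CPM in the Hal200 libraries, a log2 fold change of -3.50 ± 0.29 (adjusted p = 8.8e-08). Crb1 had 192, 144 and 164 CPM in Hal1000 and 261, 261 and 291 CPM in Hal200, a log2 fold change of -0.70 ± 0.19 (adjusted p = 0.0077). The adhesion gene Jam2 had 104, 87.9 and 96.8 CPM in Hal1000 and 127, 144 and 149 CPM in Hal200, a log2 fold change of -0.54 ± 0.09. Cldn1 was the largest rise on the list, at 5.75, 16.3 and 8.7 CPM in the Hal1000 libraries, against 1.06, 1.95 and 0.86 CPM in the Hal200 libraries, in the order of libraries of pigment genes (2.98 ± 0.66, adjusted p = 0.0022). Cldn19, a claudin of human pigment epithelium, was at 3.88, 3.2 and 5.06 CPM in Hal1000 and 2.21, 6.08 and 2.55 CPM in Hal200 and did not pass the test (adjusted p = 0.90), nor did occludin (Ocln), at 6.6, 5.83 and 6.08 CPM in Hal1000 and 6.06, 7.55 and 3.47 CPM in Hal200 (adjusted p = 0.86).

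Of 33 angiogenic and permeability genes 14 (42.4%) were called higher and 4 (12.1%) lower, against 16.5% and 18.4% of all genes. The counts were 7 and 3 without Hal200 replicate 3, but 4 higher and 7 lower with bipolar scaling. Thrombospondin 1 (Thbs1), an inhibitor of vessel growth, had 93.5, 140.1 and 112 CPM in the Hal1000 libraries, against 2.98, 5.36 and 2.65 CPM in the Hal200 libraries. Its libraries followed the pigment order with a smaller spread, and the log2 fold change was 4.97 ± 0.73 (adjusted p = 9.4e-05). Vegfa had 329, 328 and 331 CPM in the Hal1000 libraries, against 245, 232 and 286 CPM in the Hal200 libraries, a log2 fold change of 0.37 ± 0.09 (adjusted p = 0.0032) under TMM that was 0.03 (adjusted p = 0.91) with bipolar scaling. The hypoxia factor Epas1 had 259, 229 and 241 CPM in Hal1000 and 376, 452 and 484 CPM in Hal200, a log2 fold change of -0.85 ± 0.09 (adjusted p = 3.4e-07). Its relative Hif1a, at 440.2, 446 and 466 CPM in Hal1000 and 496, 476 and 514 CPM in Hal200, did not pass the test (-0.14 ± 0.07, adjusted p = 0.15), but did with bipolar scaling (-0.48, adjusted p = 0.00035). Of 40 matrix genes 9 (22.5%) were higher and 1 (2.5%) lower, against the same shares of all genes. The counts were 5 and 1 without Hal200 replicate 3 and 3 and 1 with bipolar scaling, but 18 of 38 were higher with the compared groups fitted alone. Timp3, a metalloproteinase inhibitor of Bruch's membrane, had 253, 563 and 423 CPM in the Hal1000 libraries, against 108, 153 and 109 CPM in the Hal200 libraries, a log2 fold change of 1.74 ± 0.39 (adjusted p = 0.0027). Col8a1, a collagen, had 16.6, 40.7 and 27.7 CPM in Hal1000 and 1.06, 3.02 and 0.86 CPM in Hal200, a log2 fold change of 4.09 ± 0.99 (adjusted p = 0.0049), or 4.88 without Hal200 replicate 2. Both followed the pigment order. Periostin (Postn) had 31.3, 33.5 and 35.4 CPM in the Hal1000 libraries, against 78.6, 96.3 and 66.2 CPM in the Hal200 libraries, with a control mean of 38.7 CPM, and a log2 fold change of -1.27 ± 0.23 (adjusted p = 0.0004).

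Stress genes were lower more often than higher. Of 36 genes of protein folding stress and the integrated stress pathway 10 (27.8%) were called lower and 1 (2.78%) higher, with a median of -0.15. Over all genes 18.4% were lower and 16.5% higher. The counts were 8 and 0 without Hal200 replicate 2, and 18 and 0 with bipolar scaling. Atf4, the factor of the integrated stress response, had 206, 247 and 233 CPM in the Hal1000 libraries, against 360.4, 451 and 513 CPM in the Hal200 libraries, a log2 fold change of -0.95 ± 0.12 (adjusted p = 3.6e-06). Its target Trib3 had 2.6, 1.48 and 1.71 CPM in Hal1000 and 5.19, 5.84 and 8.47 CPM in Hal200, a log2 fold change of -1.75 ± 0.39. The endoplasmic reticulum chaperone Hspa5, at 298, 307 and 309 CPM in Hal1000 and 303, 329 and 302 CPM in Hal200, did not pass the test (adjusted p = 0.83), nor did the death-related factor Ddit3, at 29.2, 34.5 and 32 CPM in Hal1000 and 37.4, 33 and 37.1 CPM in Hal200 (adjusted p = 0.42). The inducible heat shock gene Hspa1b, which has a near-identical copy that may share its reads, had 4.91, 2.69 and 2.76 CPM in the Hal1000 libraries, against 79.4, 101 and 103 CPM in the Hal200 libraries, with a control mean of 115 CPM. The groups did not overlap and the log2 fold change was -4.77 ± 0.37 (adjusted p = 5.3e-08). Hsf1, the heat shock factor, had 66.1, 58.9 and 62.1 CPM in Hal1000 and 105, 111 and 156 CPM in Hal200, a log2 fold change of -1.0 ± 0.12. The chaperone Hsp90aa1 had 797, 869 and 835 CPM in Hal1000 and 1105, 1202 and 1207 CPM in Hal200, a log2 fold change of -0.49 ± 0.07. Over the heat shock list 3 of 16 (18.75%) were higher and 5 (31.25%) lower, against 16.5% and 18.4% of all genes. The counts were 1 and 5 without Hal1000 replicate 3 or without Hal200 replicate 2 or 3. They were 6 and 5 under voom quality weights, and 0 and 7 with bipolar scaling. Of 31 immediate early genes 6 (19.4%) were higher and 9 (29%) lower, against the same shares of all genes. The counts were 2 and 6 without Hal1000 replicate 3, 3 and 9 without Hal200 replicate 3, and 1 and 12 with bipolar scaling. Npas4, a neuronal activity gene, had 0.467, 0.605 and 0.455 CPM in Hal1000 and 4.97, 2.52 and 2.45 CPM in Hal200, a log2 fold change of -2.69 ± 0.53 (adjusted p = 0.00052). The phosphatase Dusp6 rose, at 14, 27 and 20.1 CPM in Hal1000 and 8.98, 7.25 and 5.79 CPM in Hal200, in the order of libraries of pigment genes (1.47 ± 0.23, adjusted p = 4.8e-05).

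Of 36 antioxidant and iron genes 12 (33.3%) were higher and 2 (5.56%) lower, against 16.5% and 18.4% of all genes. The counts were 6 and 2 without Hal1000 replicate 2 and 7 and 2 without Hal200 replicate 3, but 2 higher and 8 lower with bipolar scaling. Transferrin (Tf), the iron carrier, had 869, 2115 and 1477 CPM in the Hal1000 libraries, against 99.3, 149 and 106 CPM in the Hal200 libraries. It was the largest rise of the list, in the pigment order of libraries, with a log2 fold change of 3.65 ± 0.54 (adjusted p = 8.9e-05). Heme oxygenase 1 (Hmox1) had 4.29, 4.66 and 6.0 CPM in the Hal1000 libraries, against 2.39, 2.1 and 2.05 CPM in the Hal200 libraries, a log2 fold change of 1.19 ± 0.28 (adjusted p = 0.0026). The transferrin receptor Tfrc had 66.6, 69.6 and 69.2 CPM in Hal1000 and 124, 101 and 115 CPM in Hal200, a log2 fold change of -0.73 ± 0.09. Gpx4, which repairs lipid peroxides, had 274, 316 and 295 CPM in Hal1000 and 401, 394 and 412 CPM in Hal200, a log2 fold change of -0.45 ± 0.09 (adjusted p = 0.00044). The quinone reductase Nqo1, at 3.53, 4.72 and 5.51 CPM in Hal1000 and 6.06, 9.13 and 5.69 CPM in Hal200, did not pass the test (adjusted p = 0.11), nor did the mitochondrial dismutase Sod2, at 67.1, 70.5 and 70.7 CPM in Hal1000 and 74.4, 72.5 and 65.8 CPM in Hal200 (adjusted p = 0.81). With bipolar scaling both were called lower, at -0.94 for Nqo1 and -0.37 for Sod2. Of 33 cell death genes 3 (9.09%) were higher and 5 (15.2%) lower, against 16.5% and 18.4% of all genes. The counts were 1 and 5 without Hal1000 replicate 2 or Hal200 replicate 3, 5 and 5 under DESeq2, and 0 and 9 with bipolar scaling. Parp1, of the poly-ADP-ribose pathway, had 77.1, 75.8 and 74.8 CPM in Hal1000 and 103, 110.3 and 127 CPM in Hal200, a log2 fold change of -0.58 ± 0.08. Aifm1, the apoptosis-inducing factor of mitochondria, had 24, 32.1 and 25.9 CPM in Hal1000 and 42.5, 43.2 and 47.6 CPM in Hal200, a log2 fold change of -0.70 ± 0.13. The necroptosis kinase Ripk3, at 1.23, 0.907 and 1.68 CPM in Hal1000 and 0.373, 1.08 and 0.199 CPM in Hal200, did not pass the test (adjusted p = 0.20), nor did its substrate Mlkl, at 0.73, 0.907 and 0.512 CPM in Hal1000 and 0.559, 0.21 and 0.0331 CPM in Hal200 (adjusted p = 0.22).

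Clock, sterol and mitochondrial genes differed in smaller steps. Of 23 clock genes 7 (30.4%) were higher and 5 (21.7%) lower, against 16.5% and 18.4% of all genes, but 1 higher and 11 lower with bipolar scaling. The clock activator Arntl had 57.9, 59.9 and 61.3 CPM in the Hal1000 libraries, against 115, 133 and 178 CPM in the Hal200 libraries, a log2 fold change of -1.25 ± 0.11 (adjusted p = 7.3e-08). The clock repressor Per1 had 82.5, 79.7 and 82.2 CPM in Hal1000 and 122, 131 and 169 CPM in Hal200, a log2 fold change of -0.79 ± 0.12. Aanat, the rhythmic enzyme of melatonin synthesis, had 3.3, 3.78 and 2.61 CPM in the Hal1000 libraries, against 0.684, 0.629 and 0.0662 CPM in the Hal200 libraries, a log2 fold change of 2.79 ± 0.55 (adjusted p = 0.00054). The labels give no time of day of collection. Of 26 cholesterol genes 11 (42.3%) were higher and 1 (3.85%) lower under TMM, and 0 and 4 with bipolar scaling. The phosphatidate phosphatase Lpin1 had 87.5, 79.3 and 89.1 CPM in Hal1000 and 117, 130.2 and 144 CPM in Hal200, a log2 fold change of -0.61 ± 0.10. Of 40 respiratory chain genes 7 were lower and 1 higher, with a median of -0.05. This share of 17.5% lower was near the 18.4% of all genes, and the count was 1 higher and 12 lower under voom quality weights and 0 higher and 17 lower with bipolar scaling. The ATP synthase subunit Atp5f1b had 788, 832 and 827 CPM in Hal1000 and 1002, 1082 and 1052 CPM in Hal200, a log2 fold change of -0.36 ± 0.07 (adjusted p = 0.00055). Of 37 cytosolic ribosomal protein genes 2 (5.41%) were called lower and 0 higher, or 1 lower when any library but Hal200 replicate 3 was left out. The number lower was 4 under DESeq2, 7 under voom quality weights, and 8 with the compared groups fitted alone or with bipolar scaling.

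The 12 largest rises at 1 CPM or more on average all had the pigment order of libraries, with Hal1000 replicate 2 highest and replicate 1 lowest, and 7 of them were on the lists. Of the 267 genes more than 2-fold higher, 140 (52.4%) had Hal1000 replicate 2 highest and replicate 1 lowest, and of the 66 more than 8-fold higher, 52 (78.8%) did. Of those 66 genes 15 were on the pigment epithelium or melanosome list. Among genes more than 2-fold lower, 164 of 854 (19.2%) had that order of the Hal1000 libraries, and 26 of 215 (12.1%) among those more than 8-fold lower. The share over all genes was not taken. Hal1000 replicate 3 lay between replicates 1 and 2 for 96.4% of the genes that differed more than 1.5-fold between those libraries. For such genes the pigment order thus mostly says only that replicate 2 was above replicate 1, and sharing it does not show a common source. The nuclear receptor Hnf4a had the largest log2 fold change, 6.19 ± 0.81 (adjusted p = 7.3e-06), at 1.11, 3.99 and 2.56 CPM in Hal1000 and 0.0622, 0.0299 and 0 CPM in Hal200. Its Hal200 libraries held 2, 1 and 0 counts, so the ratio of summed counts was 81-fold, 27.4 to 395 (95% exact interval, counting error only), and the log2 fold change was 7.03 without Hal200 replicate 1. The cytokine receptor subunit Il20ra had 1.61, 3.9 and 2.27 CPM in Hal1000 and 0.0622, 0.0599 and 0.0662 CPM in Hal200, a log2 fold change of 5.29 ± 0.61. The tetraspanin Tspan10 had 4.09, 15.8 and 9.43 CPM in Hal1000 and 0.0311, 0.569 and 0.331 CPM in Hal200, a log2 fold change of 4.95 ± 0.83, or 5.75 without Hal200 replicate 2. The complement receptor Cr2 had 0.876, 3.78 and 1.68 CPM in Hal1000 and 0.0622, 0.18 and 0 CPM in Hal200, a log2 fold change of 4.62 ± 0.90, or 5.89 without Hal200 replicate 2 and 3.90 without Hal1000 replicate 2. The paraoxonase Pon1 had 5.75, 18.5 and 12 CPM in Hal1000 and 0.404, 0.958 and 0.397 CPM in Hal200, a log2 fold change of 4.34 ± 0.82. All these genes were in the pigment order. On the pigment epithelium list itself, the transporter Slco1a5 had 3.18, 12.6 and 9.86 CPM in Hal1000 and 0.373, 0.389 and 0.199 CPM in Hal200, a log2 fold change of 4.71 ± 0.73. The amino acid transporter Slc6a20 had 6.1, 16.3 and 11.9 CPM in Hal1000 and 0.186, 0.868 and 0.662 CPM in Hal200, a log2 fold change of 4.31 ± 0.59. Ermn, known from myelin, had 6.4, 23.3 and 14.4 CPM in Hal1000 and 0.218, 0.808 and 1.16 CPM in Hal200, a log2 fold change of 4.33 ± 0.66.

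Of the 854 genes more than 2-fold lower, 66 were on photoreceptor lists, 741 had a Hal200 mean below control, and 621 had Hal200 replicate 3 highest and replicate 1 lowest, as rod genes did. Of the 267 genes more than 2-fold higher, 145 had a Hal200 mean below control and 31 had that order of the Hal200 libraries. These shares over all genes were not taken. Among the 12 largest falls, Cngb1, Nr2e3 and Pax7 have been given. Clul1, a clusterin-like gene expressed in photoreceptors, had 0.38, 0.212 and 0.0568 CPM in the Hal1000 libraries, against 98.6, 136 and 181 CPM in the Hal200 libraries, a log2 fold change of -9.31 ± 0.77 (adjusted p = 2.5e-07), or -9.99 without Hal1000 replicate 1. A further 3 genes had 0 counts in all Hal1000 libraries. Cfap52, a gene of motile cilia, was at 2.98, 5.39 and 8.6 CPM in Hal200 and at least 64.4-fold lower in Hal1000, against a floor of 3 counts per library. Btg4, known from oocytes, was at 1.9, 1.53 and 3.8 CPM in Hal200 and at least 27.4-fold lower, and Mgat4e was at 1.77, 4.04 and 1.26 CPM in Hal200 and at least 26.8-fold lower. Without Hal200 replicate 2 the bound for Mgat4e was 17.2-fold. Anxa9 held 1 count in each Hal1000 library and had 0.0292, 0.0302 and 0.0284 CPM in Hal1000 and 12.9, 15.6 and 22.8 CPM in Hal200, and the ratio of summed counts of Hal200 to Hal1000 was 579-fold, 198 to 2812 by counting error alone. Cnpy1 had 0.0584, 0.121 and 0 CPM in Hal1000 and 13, 23.4 and 44 CPM in Hal200, a log2 fold change of -8.74 ± 0.91, or -9.68 without Hal1000 replicate 2. Dnaaf6, an assembly factor of axonemal dynein, had 0.0876, 0 and 0.0284 CPM in Hal1000 and 12.8, 13.4 and 19.4 CPM in Hal200, a log2 fold change of -8.47 ± 0.72, or -9.68 without Hal1000 replicate 1. Asb15 was unlike the others, with 0, 0.0302 and 0.0284 CPM in the Hal1000 libraries, against 0.0932, 17.3 and 41.1 CPM in the Hal200 libraries and a control mean of 0.0236 CPM. It was high in Hal200 replicates 2 and 3 alone, and the ratio of summed counts of Hal200 to Hal1000 was 976-fold, 269.9 to 8069 by counting error alone, and its call was lost under voom quality weights (adjusted p = 0.33).

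The step between levels differed for halogen light from that for blue and LED light. The difference between the halogen level effect and the mean of the blue and LED level effects was called for 3974 of 16006 genes (24.8%), with 1856 (11.6%) positive and 2118 (13.2%) negative. Gnat1 averaged 21.9 CPM in Hal1000 and 6542 in Hal200, 7.07 in Blue1000 and 3.28 in Blue200, and 3.34 in LED1000 and 59.7 in LED200. Rod transcripts were thus already low at level 200 in blue and LED light, and the difference of level effects for Gnat1 was -6.70 ± 1.26 (adjusted p = 0.0013). Pde6b was among the 6 most negative differences, at -6.75 ± 1.10 (adjusted p = 0.00039), and so was Edn2, at -7.23 ± 1.21 (adjusted p = 0.00031), or -7.85 without Hal1000 replicate 2. Edn2 averaged 0.0687 CPM in Hal1000 and 17.8 in Hal200, 0.315 in Blue1000 and 0.144 in Blue200, and 0.155 in LED1000 and 0.928 in LED200. On the pigment side Rpe65 averaged 67 CPM in Hal1000 and 4.0 in Hal200, 45.8 in Blue1000 and 43.7 in Blue200, and 44.4 in LED1000 and 54.8 in LED200. Its difference of level effects was 4.18 ± 0.72 (adjusted p = 0.00056). Neurog2 had a difference of 2.50 ± 0.58 (adjusted p = 0.0038), Slc18a2 of 2.65 ± 0.32 (adjusted p = 4.9e-06) and Kcnj10 of 0.55 ± 0.09 (adjusted p = 0.00018).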

How the data were processed

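Total RNA of 21 rat retina samples was sequenced with a VAHTS Universal V6 library kit, as the labels' protocols state. The authors deposited raw counts per gene for 21 libraries in 7 groups, and the counts of the 6 halogen libraries were compared here over all 19099 genes of the table. The submitters' processing notes name R 3.2.0. No source used here gives the aligner, the counter, the genome build or whether strand was used, so overlapping, antisense and near-identical genes cannot be separated. A deposited table of normalized expression was not used.

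Counts were fitted with edgeR 4.0.16 (R 4.3.3) on all 21 libraries with 7 group means, TMM normalization, filterByExpr on the groups (minimum count 10, minimum total 15) and the robust quasi-likelihood F-test, two-sided, with Benjamini-Hochberg adjustment over the 16006 genes tested and a threshold of 0.05. The spread is thus shared by all groups. CPM values are counts divided by the TMM-scaled library total. Totals were 30404774 to 35437448 counts per library, and intervals and floors cover counting error only. Scripts were tested on simulated data. Alternatives were DESeq2 size factors, DESeq2 1.42.0, no filter, fits on the compared groups alone (6 halogen libraries, or all 18 light libraries for the difference of level effects), a replicate block, scaling to the summed bipolar genes, voom with sample weights (limma 3.58.1), and fits that omit 1 of the 6 libraries.

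Genes named are taken from the 12 largest rises and falls (called, mean of at least 1 CPM, groups not overlapping), fixed anchors and up to 4 called members with the smallest adjusted p of each of 49 gene lists, and 6 differences of level effects in each direction. Not every such gene is named. Genes outside this rule are said to have been chosen after their values were seen. The compared groups and the gene lists were chosen with earlier results of these data known. Promoter sequences are from RefSeq (GRCr8).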

Additional observations from a re-analysis of the deposited data

Results flagged for a closer look

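The halogen level effect (Hal1000 over Hal200) differed from the mean of the blue and LED level effects, by edgeR's test of that difference, for 3974 genes. The 6 largest and 6 smallest log2 differences among called genes follow, with group means.

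The 6 genes with a positive difference had higher means in Hal1000 than in Hal200. Lilrb3l had the largest, 7.24 ± 2.44 (adjusted p = 0.04), at 4.53, 4.26 and 3.72 CPM in the Hal1000 libraries, against 1.77, 1.56 and 0.0331 CPM in the Hal200 libraries, 0.0306 CPM in Blue1000 and 1.7 in Blue200, and 0.029 in LED1000 and 1.11 in LED200. Its halogen level effect alone was not called (1.89 ± 1.64, adjusted p = 0.41), and the call of the difference was lost without any 1 of the 6 halogen libraries (adjusted p = 0.062 to 0.097). Sult1c3 differed by 6.49 ± 1.60 (adjusted p = 0.0058) and held 116 counts in Hal1000 and 1 in Hal200, a ratio of 108-fold, 19.1 to 4318 (95% exact interval of counting error). Its difference was 5.81 without Hal1000 replicate 2 and 8.38 without Hal200 replicate 2. Hnf4a differed by 6.40 ± 0.89 (adjusted p = 3.2e-05), or 7.24 without Hal200 replicate 1, with 1.72 CPM in Blue1000 and 1.61 in Blue200, and 1.66 in LED1000 and 2.39 in LED200. The differences were 5.06 ± 0.68 for Il20ra, 4.94 ± 0.93 for Tspan10 and 4.88 ± 0.83 for Slco1a5 (adjusted p = 2.2e-05, 0.00098 and 0.00034). The difference of Tspan10 was 5.74 without Hal200 replicate 2. Slco1a5 averaged 8.55 CPM in Hal1000 and 0.32 in Hal200, 6.6 in Blue1000 and 6.72 in Blue200, and 6.12 in LED1000 and 7.6 in LED200.

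The 6 genes with a negative difference were lower in Hal1000 than in Hal200. Cfap52, a gene of motile cilia with 0 counts in Hal1000, had a fitted difference of -8.91 ± 2.05 (adjusted p = 0.0046), which depends on the prior count. Cnpy1 differed by -8.74 ± 1.26 (adjusted p = 9.9e-05), Edn2 by -7.23 ± 1.21 (adjusted p = 0.00031) and Pde6b by -6.75 ± 1.10 (adjusted p = 0.00039). Without Hal1000 replicate 2 the differences were -9.67 for Cnpy1 and -7.85 for Edn2. The dynein assembly factor Dnaaf6 differed by -7.18 ± 1.01 (adjusted p = 4.4e-05), or -8.39 without Hal1000 replicate 1, and the axonemal dynein gene Dnai2 by -7.12 ± 0.86 (adjusted p = 5.8e-06). Dnai2 had 0.0584, 0.0605 and 0.0568 CPM in the Hal1000 libraries, against 5.69, 10.4 and 7.11 CPM in the Hal200 libraries, 0.173 CPM in Blue1000 and 0.0773 in Blue200, and 0.215 in LED1000 and 0.372 in LED200. Pde6b averaged 3.81 CPM in Hal1000 and 1289 in Hal200, 2.94 in Blue1000 and 1.69 in Blue200, and 1.4 in LED1000 and 24.2 in LED200.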

How the results depend on the processing

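The count of genes called between Hal1000 and Hal200, 5589, stayed within 1.5 times under every alternative run, with 7192 under voom quality weights, 6443 with bipolar scaling and 4015 to 5531 with 1 library left out. The genes behind the count did not stay the same. With bipolar scaling 3303 of the 5589 were still called, and the calls split into 355 higher and 6088 lower. Under voom quality weights 5481 were still called. The count for the difference of level effects, 3974, moved to 6335 with bipolar scaling (143 positive and 6192 negative) and to 6024 under voom quality weights, and was 2907 to 4157 with 1 library left out. The difference in the rod share, -4.73 percentage points, was -5.36 to -4.16 with 1 library left out. Over 49 gene lists, the count of called members moved by more than 1.5 times for 23 lists with bipolar scaling, 13 under voom quality weights, 12 without Hal200 replicate 3, 7 with the compared groups alone, 6 under DESeq2, 2 without the filter and 0 with DESeq2 size factors. Among 171 genes named and 13 alternatives, 1 direction turned in a gene called in either fit, that of Prkca with bipolar scaling (-0.29). Turns of genes called in neither fit were not counted. Further, 6 calls were lost and 23 were gained, in 12 genes. The causes were not tested. The planned fit of the difference on the compared groups alone was listed with 12 libraries but needs all 18 light libraries, which were used. At these depths a gene with 0 counts in a library allows up to 3 counts.

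With the replicate number as a block, 5256 genes were called between the levels and 3655 for the difference of level effects, and of the genes named Csf1r gained its call (0.60, adjusted p = 0.03). Deviations from the group means correlated by -0.03, 0.06 and -0.09 between same-numbered Hal1000 and Hal200 libraries over 11187 genes. Between differently numbered libraries the correlations ran from -0.08 to 0.09. No pairing by number was seen, but a check on 3 libraries per group cannot exclude one. The best match of Hal1000 replicates 1 and 3 was a Hal200 library of another number.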

Other observations

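Genes of motile cilia were among the falls although no list covered them, and these families were chosen after their values were seen. Of 23 tested genes of axonemal dynein and its assembly (Dnai, Dnah, Dnal and Dnaaf symbols) 10 were called lower and 0 higher, 9 of them more than 2-fold, and of 24 tested Cfap genes 11 were lower and 2 higher. Over all genes 18.4% were called lower. Of 14 tubulin genes 7 were called higher and 1 lower.

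Some of the larger rises lay outside the lists, and the genes here were chosen after their values were seen. Nkd1, an inhibitor of Wnt signalling, had 259, 249 and 234 CPM in the Hal1000 libraries, against 98, 99.8 and 89.9 CPM in the Hal200 libraries, a log2 fold change of 1.37 ± 0.10 by edgeR (adjusted p = 4.4e-09) and a control mean of 88.7 CPM. Mchr1, the receptor of melanin-concentrating hormone, had 59.5, 51.1 and 54.4 CPM in the Hal1000 libraries, against 21.3, 18.4 and 10.5 CPM in the Hal200 libraries, a log2 fold change of 1.72 ± 0.20 (adjusted p = 2.7e-06) and a control mean of 6.56 CPM. Ntsr2, a neurotensin receptor, had 4.32, 4.26 and 5.09 CPM in the Hal1000 libraries, against 1.27, 2.25 and 1.22 CPM in the Hal200 libraries, a log2 fold change of 1.52 ± 0.32 (adjusted p = 0.0011) and a control mean of 0.676 CPM. Every Hal1000 library lay above every Hal200 library in these 3 genes, and the Hal1000 libraries did not follow the order of the pigment genes. Igfbp3, which binds insulin-like growth factors, had 8.29, 12.9 and 11.3 CPM in the Hal1000 libraries, against 1.09, 1.2 and 1.79 CPM in the Hal200 libraries, a log2 fold change of 2.99 ± 0.47 (adjusted p = 7.0e-05), and did follow that order.

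A few genes were higher in Hal200 than in both Hal1000 and control, also chosen after their values were seen. Epha1, an ephrin receptor, had 1.02, 1.93 and 1.17 CPM in the Hal1000 libraries, against 17.7, 26.2 and 44.2 CPM in the Hal200 libraries, with 4.62 to 17.6 CPM in control, and its log2 fold change was -4.42 ± 0.64 (adjusted p = 4.5e-05). Gal, Postn and Bcl3, given above, also had Hal200 means above the control means. Hal200 and control were not tested against each other here.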
